A study of Homo sapiens with 6 samples.

Results

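The 9 genes followed here are used as markers of the epicardium and of related mesothelial linings: WT1, TCF21, BNC1, BNC2, UPK3B, UPK1B, MSLN, PDPN and LRRN4. They were picked by symbol, with earlier results of these data known, and all 9 were found among the 35793 genes listed. The RNA came from cardiomyocytes that had been differentiated from human induced pluripotent stem cells and were collected on day 15. One genotype was unedited WTC11, an established stem cell line, and the other was made from it by CRISPR/Cas9 and is labelled as a homozygous knockout of the kinase gene STK25. Each genotype had 3 biological replicates and no other treatment, the knockout being represented by 1 cell line; effects of the edit and of that line cannot be told apart. The labels give no batch.

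The epicardium is the mesothelial sheet that covers the heart. It forms from the proepicardium, and some of its cells lose their epithelial contacts, enter the heart wall and give rise to fibroblasts and mural cells. WT1 is a zinc finger transcription factor of the epicardium, TCF21 a basic helix-loop-helix factor of epicardial cells and the fibroblasts that come from them, and BNC1 and BNC2 are the paired basonuclin zinc finger proteins. UPK3B and UPK1B are uroplakins, membrane proteins first described in the bladder lining. MSLN (mesothelin) and PDPN (podoplanin) are surface glycoproteins of mesothelium, and LRRN4 encodes a leucine-rich repeat membrane protein.

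The reads assigned to genes ran from 22443904 to 53224112 per library. STK25, the edited gene, was lower in the knockout, at 3906, 3434 and 3820 normalized counts against 8874, 6774 and 8710 (limma, -1.12 ± 0.19 (SE) on the log2 scale, adjusted p = 0.00903, or 0.0609 without wild-type replicate 1). Here and below, a normalized count is the deposited value, a log2 fold change compares log2(value + 1) in knockout over wild type, and adjusted p-values are by Benjamini-Hochberg over the 15536 genes with a mean of at least 10. Under that test 12.8% of the genes passed the threshold of 0.05. Of all genes tested, 5.97% passed as higher and 6.79% as lower in the knockout. The libraries expressed cardiomyocyte genes throughout, the 12 listed markers summing to between 1481000 and 1884750 normalized counts in the wild type and between 2112090 and 3906640 in the knockout. NKX2-5, a cardiac transcription factor, was the only one of the 12 past the threshold, with a log2 fold change of -1.71 (SE 0.18; limma adjusted p = 0.00135).

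The start regions of the 4 transcription factor genes are shown first, since 3 of these factors were higher in every knockout library while BNC1, the paralog of BNC2, was not. The sequences are from RefSeq (GRCh38.p14) and run 5′ to 3′ on the gene's strand. Each shows the part of the 250 bases before the start of the first transcript listed that lies outside the gene as annotated in GENCODE 29. Capitals mark matches on either strand to the following motifs. The GC box was searched as GGGCGG, the letters that Sp1-type factors bind. An E-box of the kind that TCF21 and its relatives can bind was searched as CAGCTG. The binding motif of the cardiac and epicardial factors of the GATA family was searched as AGATAA. That of TEAD factors, the partners of YAP, was searched as CATTCC and has no match in the stretches shown.
WT1, chr11:32435631-32435789, minus strand: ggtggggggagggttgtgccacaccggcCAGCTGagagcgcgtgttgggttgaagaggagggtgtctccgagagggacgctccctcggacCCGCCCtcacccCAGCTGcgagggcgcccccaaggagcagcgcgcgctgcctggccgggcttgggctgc
TCF21, chr6:133888863-133889112, plus strand: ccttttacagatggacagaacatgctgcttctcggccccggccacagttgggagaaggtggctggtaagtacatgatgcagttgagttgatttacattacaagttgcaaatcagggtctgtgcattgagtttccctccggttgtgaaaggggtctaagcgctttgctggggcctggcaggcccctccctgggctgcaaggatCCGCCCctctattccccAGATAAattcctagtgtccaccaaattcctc
BNC2, chr9:16870844-16870920, minus strand: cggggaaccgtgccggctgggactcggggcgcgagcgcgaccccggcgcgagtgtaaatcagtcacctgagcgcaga
BNC1, chr15:83284715-83284914, minus strand: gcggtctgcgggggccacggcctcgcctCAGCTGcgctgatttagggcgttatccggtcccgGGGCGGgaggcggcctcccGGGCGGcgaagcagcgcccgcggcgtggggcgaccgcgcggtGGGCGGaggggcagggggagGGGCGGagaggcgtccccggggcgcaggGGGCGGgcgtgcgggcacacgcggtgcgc

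Counted back from the start of the first transcript listed, WT1 held the E-box letters at 222 and at 148 bases, and BNC1 at 222 bases. For WT1 and BNC1 that start lies inside the gene as annotated, so the stretches shown end before it. On the same count TCF21 held a GATA motif that began at 31 bases and a GC box at 48 bases. Over the full 250 bases the E-box was in 3 of the 7 members with a sequence (PDPN, WT1 and BNC1), against 13.8% of 27305 genes. The GC box was in 6 of 7 (all but UPK1B), against 42.3%, the GATA motif in TCF21 alone, against 9.37%, and the TEAD motif in UPK1B alone, against 11.9%. GC content over these 250 bases ran from 48.8% for PDPN and 52.8% for TCF21 to 76.8% for BNC2 and 81.6% for BNC1, beside a median of 58.0% over all genes. LRRN4 and MSLN have no entry in the table used. These matches describe letters only.

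The 9 genes did not move as 1 group. TCF21, BNC2 and PDPN rose in the knockout (limma, adjusted p under 0.05), WT1 was higher in every knockout library without passing that threshold, and BNC1, UPK3B, UPK1B and LRRN4 overlapped between the genotypes. MSLN was at or near 0 reads everywhere. Of the 8 members tested, 3 passed and 4 had non-overlapping genotypes, all 4 higher in the knockout. Over all genes 12.8% passed and 33.4% did not overlap, with 16.2% on the higher and 17.2% on the lower side. The median log2 fold change of the 8 was 0.62, beside 0.0052 for all genes tested.

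**Figure D1:**
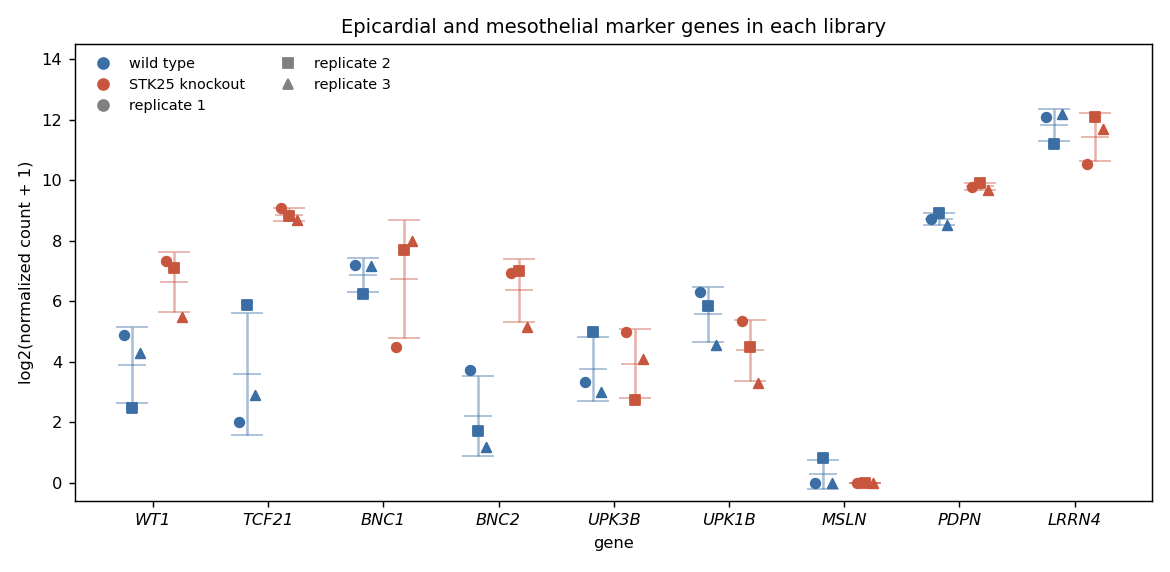
Each point is 1 library, as log2(normalized count + 1), for the 9 marker genes on the horizontal axis; blue is wild type, red is STK25 knockout, the marker shape gives the replicate number, and bars show the mean ± SD of 3 libraries on the log2 scale. The red and blue points are separate for WT1, TCF21, BNC2 and PDPN, mix for BNC1, UPK3B, UPK1B and LRRN4, and lie at or near 0 for MSLN.

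TCF21 (ENSG00000118526.6, chromosome 6, 133889138 to 133895553, plus strand; all gene positions are from GENCODE 29 on GRCh38) had the largest log2 fold change of the 8 with limma, though not without wild-type replicate 1, where BNC2 had 4.91 and TCF21 4.49, nor with edgeR, where both had 4.32. Its normalized counts were 3.02, 57.1 and 6.38 in wild-type replicates 1, 2 and 3, and 543, 447 and 411 in knockout replicates 1, 2 and 3. The wild-type values rested on 2, 75 and 10 reads, so replicate 2 stood well above the other wild-type libraries and yet far below every knockout library. The means were 22.2 ± 30.3 and 467 ± 67.9 (SD, n = 3 each), a ratio of 21.1. The limma fold change was 5.28 ± 0.90 (SE, log2), adjusted p = 0.00952. It was 6.42 without wild-type replicate 2 and 4.32 with edgeR on the recovered reads (adjusted p = 0.0212), and whichever library was omitted it still passed (highest adjusted p 0.042). For single genes, the exact permutation of 3 against 3 libraries, taken as two-sided, gave p = 0.1 for TCF21, WT1, BNC2 and PDPN alike, the smallest p this design allows. An antisense gene, TARID, overlaps TCF21 exons in the annotation and is not among the genes listed; the strand setting is not given in the sources used here, so reads of the pair cannot be told apart.

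BNC2 (ENSG00000173068.17, chromosome 9, 16409503 to 16870843, minus strand) was close to absent in the wild type. It had 12.1, 2.29 and 1.276 normalized counts in the 3 wild-type libraries, from 8, 3 and 2 reads. The knockout libraries had 122, 126 and 34.7, from 96, 113 and 39 reads. The lowest knockout library, replicate 3, was still above the highest wild-type library. The means were 5.21 ± 5.97 and 94.2 ± 51.6 (SD, n = 3 each), with a log2 fold change of 4.16 and an SE of 0.86 (limma adjusted p = 0.0195). The call was lost without wild-type replicate 2 (adjusted p = 0.0521), wild-type replicate 3 (0.0671) or knockout replicate 2 (0.0712), with log2 fold changes between 3.65 and 3.91 in those fits.

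WT1 (ENSG00000184937.13, chromosome 11, 32387775 to 32435630, minus strand) had 28.7, 4.57 and 18.5 normalized counts in the wild type. In the knockout it had 159, 135 and 43.5. Every knockout library was above every wild-type library, although knockout replicate 3 lay closer to wild-type replicate 1 than to the other knockout libraries. The means were 17.3 ± 12.1 and 112 ± 60.9 (SD, n = 3 each). The limma fold change was 2.74 ± 0.78 (SE, log2), and it did not pass over all genes (limma adjusted p = 0.0584). It passed with DESeq2 (adjusted p = 0.00335) and with a pseudocount of 10 (0.0423), and over the other alternatives tried the adjusted p ran up to 0.152. WT1-AS, a divergent antisense RNA whose exons overlap those of WT1, is likewise not among the genes listed.

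BNC1 (ENSG00000169594.13, chromosome 15, 83255903 to 83284714, minus strand), by contrast with BNC2, had overlapping genotypes. Its normalized counts were 147, 73.9 and 142 in the wild type and 21.6, 207 and 254 in the knockout. Knockout replicate 1 was the lowest of all libraries and the other knockout libraries were the highest. The limma fold change was -0.13 ± 0.89 (SE, log2), adjusted p = 0.948, while the means ran the other way, at 121 ± 40.8 and 161 ± 123 (SD, n = 3 each). Without knockout replicate 1 the fold change was 0.98 (adjusted p = 0.154). The difference between the fold changes of BNC1 and BNC2 was not tested.

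PDPN (ENSG00000162493.16, chromosome 1, 13583465 to 13617957, plus strand) was the surface gene that rose. Normalized counts were 415, 478 and 365 in wild-type libraries and 875, 963 and 822 in knockout libraries. Both genotypes were tight, and the gap between them was wider than the range of either. The means were 420 ± 56.8 and 887 ± 71.2 (SD, n = 3 each), a ratio of 2.11, with a log2 fold change of 1.08 and an SE of 0.22 (limma adjusted p = 0.0168). The call was lost without wild-type replicate 1 (adjusted p = 0.0813), wild-type replicate 3 (0.0748), knockout replicate 2 (0.0663) or knockout replicate 3 (0.0595). It was also lost when libraries were scaled to equal totals, where the log2 fold change was 0.80 (adjusted p = 0.0663) and the median of all genes fell to -0.27.

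LRRN4 (ENSG00000125872.7, chromosome 20, 6040778 to 6054049, minus strand) was expressed strongly in both genotypes. It had 4327, 2366 and 4630 normalized counts in the wild type and 1491, 4300 and 3292 in the knockout. The genotypes overlapped, wild-type replicate 2 and knockout replicate 1 being the lowest of their groups. The limma fold change was -0.39 ± 0.43 (SE, log2), adjusted p = 0.619, and without knockout replicate 1 it was 0.056. LRRN4 made up 77.1% to 89.2% of the summed normalized counts of the 9 genes in the wild-type libraries and 45.4% to 69.3% in the knockout libraries. Without LRRN4, the other genes summed to 693, 704 and 563 in the wild type and to 1790, 1905 and 1591 in the knockout. PDPN made up 59.9% to 68.0% of that remainder in the wild type and 48.9% to 51.7% in the knockout, and TCF21 went from between 0.44% and 8.12% to between 23.5% and 30.3%.

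The uroplakins were low and did not pass. UPK1B (ENSG00000114638.7, chromosome 3, 119173517 to 119205153, plus strand) had 78.5, 56.4 and 22.3 normalized counts in the wild type and 39.4, 21.2 and 8.89 in the knockout. The 2 lower wild-type values fell on either side of the highest knockout value, and the limma fold change was -1.20 ± 0.71 (SE, log2), adjusted p = 0.332. UPK3B (ENSG00000243566.6, chromosome 7, 76510428 to 76516521, plus strand) had 9.06, 30.5 and 7.02 in the wild type and 30.5, 5.57 and 16.0 in the knockout, so each range lay within or across the other. The limma estimate was 0.16 ± 0.85 (SE, log2; adjusted p = 0.933), and its sign changed when libraries were scaled to equal totals (-0.11). Of the other uroplakins, UPK3BL1 had 500, 468 and 401 normalized counts in the wild type and 261, 262 and 264 in the knockout, with a log2 fold change of -0.79 (SE 0.23; limma adjusted p = 0.0623). UPK3BL1 is a close paralog of UPK3B and reads could have been split between them, so the values of both are uncertain. UPK1A, UPK2 and UPK3A fell under the minimum mean of 10, and with them 0 of the 3 uroplakins tested passed.

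MSLN (ENSG00000102854.15, chromosome 16, 760762 to 768865, plus strand) was the member that was not tested. Wild-type replicate 2 had 1 read and the other 5 libraries had 0. A count of 0 allows up to 3 reads, which corresponds to between 1.91 and 4.53 normalized counts in these libraries. MUC16, the mucin that binds mesothelin on mesothelial surfaces, was at 0 reads in all 6 libraries, and so was SLPI. Thus 2 surface genes of mesothelium, MSLN and MUC16, were at or near 0 in these libraries, whereas LRRN4 and PDPN were abundant. Of the 30 other epicardial and mesothelial genes described below, 2 had 3 reads or fewer in every library, MUC16 and SLPI.

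Levels were also compared between genes per kilobase of transcript, using the median length of the protein-coding transcripts. In the wild type the order was LRRN4 (1402 normalized counts per kilobase), PDPN (314), BNC1 (31.1), UPK1B (27.1), UPK3B (12.0), WT1 (7.61), TCF21 (5.87), BNC2 (1.47) and MSLN (0.12). LRRN4 and PDPN stood apart from their lower neighbours in every library, whereas from BNC1 down to BNC2 each gene overlapped the next. In the knockout the order was LRRN4 (1125), PDPN (663), TCF21 (124), WT1 (49.6), BNC1 (41.4), BNC2 (26.5), UPK3B (13.4), UPK1B (12.0) and MSLN (0). TCF21 moved from the seventh to the third place there and overlapped neither PDPN above nor WT1 below. The genes from WT1 to UPK1B overlapped their neighbours, and LRRN4 overlapped PDPN. With the longest transcript in place of the median length the wild-type order was the same, and in the knockout UPK1B moved above BNC2 and UPK3B. Averaged over the 6 libraries, 80.9% of tested genes with a length lay below LRRN4 per kilobase, 66.0% below PDPN, 29.8% below TCF21 and 19.0% below WT1.

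**Figure D2:**
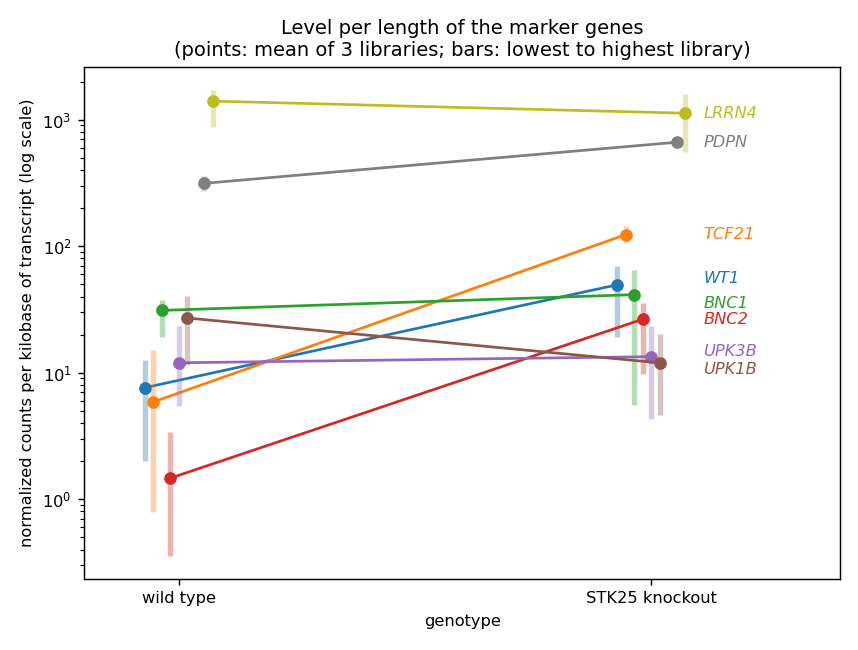
Mean level per kilobase of transcript on a log axis for 8 of the marker genes in wild type (left) and STK25 knockout (right), with pale bars from the lowest to the highest of 3 libraries and points offset sideways by gene; MSLN, at 0.12 and 0, is left out. TCF21 and BNC2, which passed the test, climb from 5.87 and 1.47 on the left to 124 and 26.5 on the right, and WT1, which did not pass, has means of 7.61 and 49.6, while LRRN4 and UPK3B stay at similar heights.

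The replicates of each genotype also differed among themselves, and wild-type replicate 2 and knockout replicate 1 often took the same side. BNC1 and LRRN4 were lowest of their genotype in both of these libraries, a pattern found in 30.4% of the tested genes. TCF21 and UPK3B were highest of their genotype in both, as in 29.5% of the tested genes. The summed cardiomyocyte markers were also highest in these libraries, at 1884750 in wild-type replicate 2 and 3906640 in knockout replicate 1. The atrial light chain gene MYL7 gave 739950 and 2324410 of these sums, whereas the heavy chain genes MYH6 and MYH7 and the alpha-actinin gene ACTN2 were lowest of their genotype in the same libraries. Their part in the values of the marker genes was not tested. As a description over 6 libraries, the genes outside the list whose log2 values followed WT1 most closely were MAP4 (Pearson r = 0.990), CGNL1 (0.989) and PLAC1 (0.987). Those that followed PDPN most closely were GPN2 (0.997), RNF152 (0.995) and PZP (0.994). The genotype difference is part of each of these values, and they were picked from 15536 genes.

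Other genes of the epicardium and mesothelium, 30 in all, were listed as known markers, likewise with earlier results known, and set beside the 9. Of the 20 that reached the minimum mean, 5 rose, 3 fell and 12 did not pass, with a median log2 fold change of 0.21. Over all genes tested 5.97% were higher and 6.79% lower, and 33.4% had genotypes that did not overlap. ALDH1A2, the retinoic acid synthesis enzyme of the epicardium, had 0, 7.62 and 11.5 normalized counts in the wild type and 90.2, 224 and 254 in the knockout, with no overlap. The limma estimate was 5.19 ± 0.99 (SE, log2; adjusted p = 0.0141, or 0.066 without knockout replicate 3 and 0.0541 with a pseudocount of 0.1). CALB2 (calretinin), a calcium-binding protein of mesothelium, averaged 65.4 ± 20.9 normalized counts in the wild type and 400.5 ± 20.1 in the knockout (SD, n = 3 each; limma, 2.64 ± 0.32 (SE) on the log2 scale, adjusted p = 0.00236). SULF1, an extracellular sulfatase that trims heparan sulfate, went from 93.2 ± 28.1 to 602 ± 222 (SD, n = 3 each; limma, 2.64 ± 0.39 (SE) on the log2 scale, adjusted p = 0.00494). CALB2 and SULF1 passed under every scaling and in every fit that left out 1 library.

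The keratins, which form intermediate filaments in epithelial and mesothelial cells, moved in opposite directions. KRT18 averaged 49054 ± 3341 normalized counts in the wild type and 150037 ± 4598 in the knockout (SD, n = 3 each; limma, 1.61 ± 0.22 (SE) on the log2 scale, adjusted p = 0.00348). With a block for the replicate number the KRT18 call was lost (limma adjusted p = 0.066). KRT8, the usual partner of KRT18, had a log2 fold change of 1.14 (SE 0.24, limma adjusted p = 0.0218). The KRT8 call was lost with equal totals (0.0692), quantile normalization (0.222), the replicate block (0.176) or no minimum mean (0.0725). It was also lost in 5 of the 6 fits that left out 1 library, all but the one without knockout replicate 1 (adjusted p 0.0606 to 0.106). KRT19 fell, from 12908 ± 2007 to 4910 ± 130 (SD, n = 3 each; limma, -1.38 ± 0.19 (SE) on the log2 scale, adjusted p = 0.00341). KRT7 had 39.3, 6.09 and 33.8 normalized counts in the wild type and 1.27, 3.34 and 1.78 in the knockout, with no overlap. It did not pass with limma (adjusted p = 0.0848), and did so without wild-type replicate 2, with edgeR and with DESeq2. CDH3, P-cadherin, fell from 6892 ± 1928 to 1580 ± 571 (SD, n = 3 each; limma, -2.16 ± 0.35 (SE) on the log2 scale, adjusted p = 0.00768). BICC1, an RNA-binding protein named after its values were seen, fell from 334 ± 12.8 to 153 ± 15.0 (SD, n = 3 each; limma adjusted p = 0.0253), and passed in only 1 of the fits that left out 1 library, the one without knockout replicate 1. TBX18, a T-box factor of the proepicardium, had 61.9, 120 and 147 normalized counts in the wild type and 267, 280 and 187 in the knockout. The genotypes did not overlap, and the difference did not pass with limma (1.22 ± 0.40 (SE) on the log2 scale, adjusted p = 0.0898) but did with DESeq2.

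**Figure D3:**
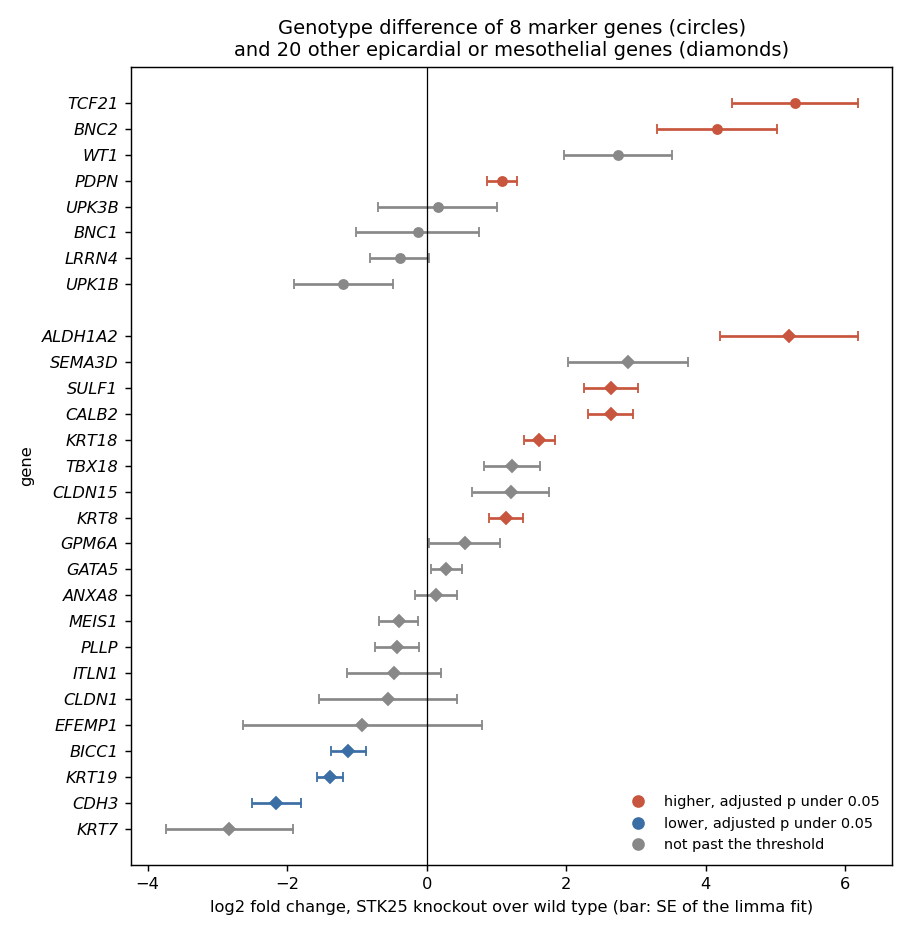
Log2 fold change, STK25 knockout over wild type, with the SE of the limma fit, for the 8 marker genes tested (circles) and the 20 other epicardial or mesothelial genes tested (diamonds); red genes were higher and blue genes lower at an adjusted p under 0.05, and grey genes did not pass. TCF21 at 5.28 and ALDH1A2 at 5.19 lie farthest to the right, and the wide bars of BNC1 and UPK3B cross 0.

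Genes of the epithelial-to-mesenchymal transition that epicardial cells undergo were measured next, 21 in all and 21 tested. Of these, 2 rose, 1 fell and 18 did not pass, a count near the 12.8% that passed over all genes tested. SNAI2, a zinc finger repressor that drives the transition, had 153, 99.0 and 93.8 normalized counts in the wild type and 350, 353 and 497 in the knockout (limma, 1.80 ± 0.32 (SE) on the log2 scale, adjusted p = 0.0105, or 0.053 without knockout replicate 3). Its relative SNAI1 (-1.58, limma adjusted p = 0.231) and TWIST1, another gene of the list (-1.61, limma adjusted p = 0.178), had fold changes of the opposite sign and did not pass. TGFB2, a TGF-beta ligand, had a log2 fold change of 1.17 (limma adjusted p = 0.0149), lost with equal totals (0.0988) and without wild-type replicate 3, knockout replicate 2 or knockout replicate 3 (0.0514 to 0.0609). TGFBR3, the TGF-beta co-receptor betaglycan, had 142, 80.0 and 117 normalized counts in the wild type and 5.08, 33.4 and 15.1 in the knockout (limma, -2.89 ± 0.68 (SE) on the log2 scale, adjusted p = 0.0303). That call was lost without any one wild-type library or without knockout replicate 3 (0.0563 to 0.128).

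Among 16 cofactors and reported targets of WT1, 15 were listed and 11 tested, of which 1 rose and 2 fell. The shares over all genes tested, 5.97% higher and 6.79% lower, apply to each list named here. BASP1, a protein that turns WT1 into a repressor, had 633, 957 and 600 normalized counts in the wild type and 3895, 2918 and 2935 in the knockout. The groups were far apart (limma, 2.17 ± 0.25 (SE) on the log2 scale, adjusted p = 0.00178), and the call held in every fit that left out 1 library. AMHR2, the receptor of anti-Müllerian hormone, fell from 857 ± 352 to 150 ± 88.4 (SD, n = 3 each; limma adjusted p = 0.0112), and SFRP1, a secreted Wnt antagonist, from 1519 ± 302 to 636 ± 85.5 (SD, n = 3 each; limma adjusted p = 0.0124). Both calls were lost without wild-type replicate 1 or knockout replicate 3 (adjusted p 0.0516 to 0.0631). Among the 11 genes of podoplanin, mesothelin and their partners, 7 were tested, PDPN rose and LGALS8, a galectin that binds podoplanin, fell. LGALS8 had 1444, 997 and 1477 normalized counts in the wild type and 580, 583 and 517 in the knockout (limma, -1.20 ± 0.23 (SE) on the log2 scale, adjusted p = 0.0143, and 0.0651 to 0.0826 without replicate 1 or 3 of the wild type or knockout replicate 3). EZR, the ezrin linker that joins podoplanin to actin, had a log2 fold change of 0.046 (SE 0.26; limma adjusted p = 0.937).

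Since several of the marker genes are also expressed by other cells, markers of those cells were measured in the same libraries. The counts of these lists are to be read beside the 5.97% higher and 6.79% lower over all genes tested. TCF21 is shared with fibroblasts and is 1 of the 10 fibroblast markers listed. Of the 10, 4 rose, TCF21 among them, and 1 fell. THY1 averaged 23.8 ± 6.48 normalized counts in the wild type and 188 ± 21.6 in the knockout (SD, n = 3 each; limma adjusted p = 0.00275), with COL3A1 (log2 fold change 2.61) and DCN (2.82) also higher. COL3A1 did not pass without wild-type replicate 1, knockout replicate 2 or knockout replicate 3 (adjusted p 0.0524 to 0.0723), nor DCN without those or without wild-type replicate 3 (0.0558 to 0.112). COL1A2 went from 9072, 4237 and 9232 in the wild type to 132, 376 and 212 in the knockout, a log2 fold change of -5.01 (SE 0.44; limma adjusted p = 0.000616). The summed fibroblast markers lay between 13009 and 26554 in wild-type libraries and between 8515 and 16927 in knockout libraries. COL1A1 was the largest term of that sum in each library and did not pass (log2 fold change -1.10, limma adjusted p = 0.0789). Of the 10 markers, 6 were higher in every knockout library and 2 lower, beside 16.2% and 17.2% of all genes tested. The part of the fibroblast markers in the TCF21 difference was not tested. Of 8 smooth muscle and pericyte markers 5 rose and 0 fell. CNN1 and SMTN, both actin-associated, were among the 5 and were lost with equal totals (adjusted p 0.109 and 0.119), CNN1 also with quantile normalization (0.239) and SMTN without a trend (0.0581). CNN1 was also lost in 5 and SMTN in 4 of the 6 fits that left out 1 library, CNN1 passing without knockout replicate 1 and SMTN without that library or wild-type replicate 3. MYH11, smooth muscle myosin, went from 254 ± 88.5 to 8493 ± 1163 (SD, n = 3 each; limma, 5.12 ± 0.30 (SE) on the log2 scale, adjusted p = 0.000175). The summed level of that list was 89582 to 99126 in the wild type and 501282 to 547752 in the knockout. Its largest term in each library was ACTA2, an actin gene, at 49466 ± 3691 and 389103 ± 8357 (SD, n = 3 each, limma adjusted p = 0.00042). TAGLN also rose, from 15842.5 ± 1533 to 74995 ± 20501 (SD, n = 3 each, limma adjusted p = 0.00164). RGS5 (log2 fold change -0.13), CSPG4 (-1.68) and PDGFRB (2.24) did not pass. In bulk RNA, a change in the number of cells of a type cannot be told apart from a change in RNA per cell.

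PDPN is also expressed in lymphatic endothelium and alveolar type I cells. LYVE1, a lymphatic marker, was at 0 reads in all 6 libraries, CDH5, the endothelial cadherin, was at no more than 1 read in any, and CCL21 was at 6.04, 19.0 and 7.02 normalized counts in the wild type and at 0 reads in every knockout library. Other genes of these lists were present in both genotypes. PROX1, a lymphatic factor that cardiac muscle also expresses, lay between 881 and 1971 normalized counts over the 6 libraries, the VEGF receptor genes KDR between 67.8 and 415 and FLT4 between 16.7 and 80.7. Apart from PDPN, 0 of the 4 other alveolar markers passed, 0 of the 2 other lymphatic markers tested and 0 of the 4 endothelial markers tested. WT1 is also a podocyte gene. NPHS1, a slit diaphragm gene, was at 0 reads in every knockout library, while SYNPO, an actin-binding protein that muscle expresses as well, had a log2 fold change of 1.70 (SE 0.35; limma adjusted p = 0.0200, and 0.0602 to 0.0828 without replicate 1 or 3 of the wild type or knockout replicate 2). Bladder urothelial markers were low, KRT20 being at 0 reads and the list of 7 summing to at most 207 normalized counts in any library, with 0 of the 2 tested past the threshold.

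Of 8 general epithelial markers KRT8 and KRT18 rose and KRT19 fell. For this list and the next lists, 5.97% higher and 6.79% lower are again the shares over all genes tested. CDH1, the epithelial cadherin, had 4.44 to 31.8 normalized counts over the 6 libraries and EPCAM a log2 fold change of -0.20 (SE 0.24; limma adjusted p = 0.660). Endoderm and liver markers included 1 gene that rose, APOB, and 1 that fell, AFP, while FOXA2 was at 0 reads throughout. Neural markers included 3 that rose of 6 tested, SOX2, TUBB3 and PAX6, the last of which was lost in each fit that left out 1 library (adjusted p 0.0507 to 0.127). The list summed to 4567 to 7865 in the wild type and 7096 to 16916 in the knockout. Its largest term in each library was NES, at 5264, 7747 and 4502 in the wild type and 16198, 6481 and 6632.5 in the knockout. NES did not pass (limma adjusted p = 0.340), nor did MAP2 (log2 fold change -0.22) and ELAVL4 (1.87). DCX fell under the minimum mean, with at most 7.55 normalized counts in the wild type and 0.889 in the knockout. The parts of these lists in the differences of the 9 marker genes were not tested.

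**Figure D4:**
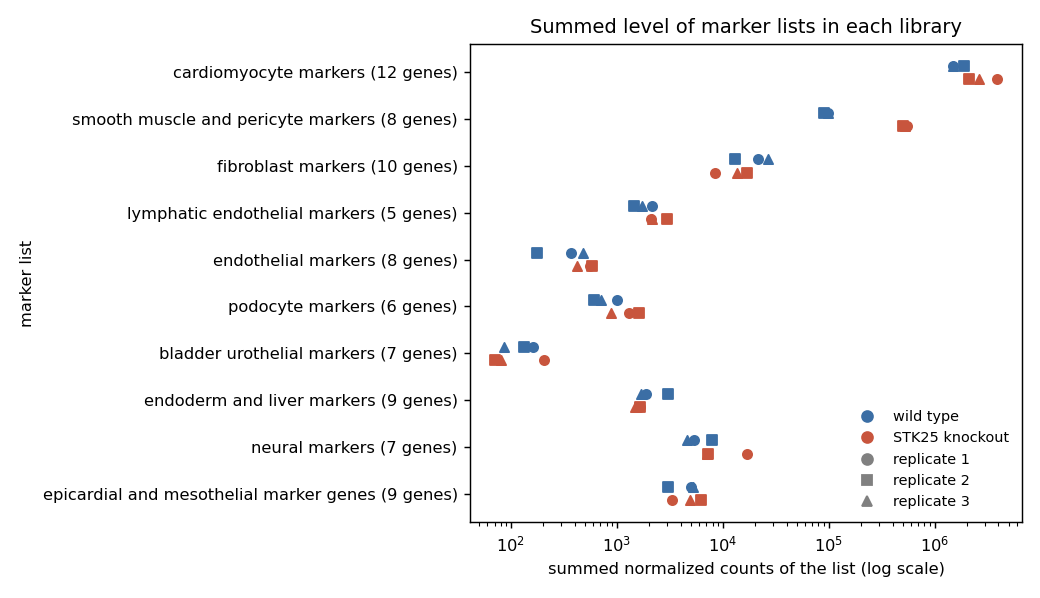
Summed normalized counts of 10 marker lists in each library on a log axis, with wild type in blue, STK25 knockout in red and the shape giving the replicate; lists share some genes. The smooth muscle and pericyte list separates the genotypes most plainly, from at most 99126 to at least 501282, ACTA2 being its largest term in each library. The sums of the 9 marker genes mix, LRRN4 being the largest term in each.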

How the data were processed

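RNA-seq of 6 libraries, 3 wild-type and 3 STK25 knockout, was analysed from 1 deposited table. Its values are a signal that the authors call normalized counts; bcl2fastq 2.19, kallisto 0.44.0, DESeq2 1.28.1 and GRCh38 are named in the submitters' processing notes. The annotation and strand setting are not given in the sources used here. Columns were matched by the labels, and 0 were left unused. In every column 100% of the values were whole multiples of 1 step, within 0.01 reads, so reads were recovered. Replicates are the labels' biological replicates, and every pair of one genotype differed by more than counting noise (chi-square over degrees of freedom, 20.3 to 398). Floors of 3 reads cover counting error only.

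limma 3.58.1 in R 4.3.3 was fitted to log2(value + 1), with a trend and no covariate, for the 15536 genes averaging 10 or more. The pseudocount pulls the folds of low genes toward 0, and folds of mean logs can differ from ratios of means. edgeR 4.0.16, which called 1864 genes, and DESeq2 1.42.0 were alternatives on the recovered reads, beside other pseudocounts, filters, scalings, no trend in eBayes, a block for the replicate number, and leaving out each library. In simulated data with 15536 genes, limma recovered 61 of 100 genes changed by 2 on the log2 scale and 2 of 100 changed by 1, with 3 false calls. Far fewer genes were changed there than were called in the real data, and the simulated libraries shared no replicate pattern. The recovery rates therefore do not carry over to the real libraries.

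The 9 members and the lists were chosen with earlier results of these data known. Genes named are the members, STK25, cardiomyocyte markers and up to 5 called genes per list. The most abundant uroplakin and podoplanin partner and the 3 genes most like WT1 and PDPN were also named. Added after their values were seen were BICC1, TBX18, KRT7, SNAI1, TWIST1, CDH1, EPCAM, UPK1A, UPK2 and UPK3A. So were CDH5, PROX1, KDR, FLT4, CCL21, NPHS1, RGS5, CSPG4, PDGFRB and genes named at 0 reads. Lengths and positions are from GENCODE 29. Figures used Python 3.11.15 and matplotlib 3.10.9.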

Additional observations from a re-analysis of the deposited data

How the results depend on the processing

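Over all genes, 1982 passed the threshold with limma, 798 with the replicate block, 3210 with DESeq2 and between 796 and 2181 when 1 library was left out; omitting a wild-type library gave 796 (replicate 1) or 916 (replicate 3), and omitting a knockout library 1292 (replicate 2) or 962 (replicate 3). With equal totals 549 genes were higher and 1457 lower, in place of 927 and 1055. Of the 9 marker genes, 3 passed, and between 1 and 4 under the alternatives; leaving out 1 library gave 1 to 3, with TCF21 alone left without wild-type replicate 3 or knockout replicate 2. Of the other epicardial and mesothelial genes 8 passed, 5 with the replicate block and 5 to 8 when 1 library was left out, the lowest being without knockout replicate 3. The labels do not say whether the replicate numbers pair the samples. Deviations of same-numbered libraries from their genotype means correlated at -0.235, -0.4 and 0.169. Deviations within a genotype cancel out, so these values cannot decide it. With the replicate block in limma, PDPN had an adjusted p of 0.091 and STK25 0.0684, so these calls were lost. So were those of KRT18 (0.066), KRT8 (0.176), BICC1 (0.124), SNAI2 (0.0551), TGFB2 (0.0904) and TGFBR3 (0.0839). The calls of SFRP1 (0.0641), LGALS8 (0.0787), DCN (0.0856), CNN1 (0.13), SMTN (0.0672) and PAX6 (0.0607) were lost under the block as well. TCF21 and BNC2 still passed under the replicate block. Signs turned for genes that never passed. BNC1 was 0.41 with edgeR and 0.41 with DESeq2, and ran from -0.76 to 0.98 when 1 library was omitted, at 0.038 and 0.017 when that was wild-type replicate 1 or 3. UPK3B was -0.11 with equal totals and ran from -0.37 to 0.76, at -0.062 and -0.23 for the same 2 wild-type libraries. LRRN4 ran from -0.71 to 0.056; the extreme of opposite sign came from omitting knockout replicate 1 for all 3 genes. The cause was not tested. Low read numbers limit the precision of MSLN, BNC2 and TCF21 in the wild type, where values rest on as few as 0 to 10 reads in most libraries.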
